A study of Mus musculus with 4 samples.

Results

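The collagen genes were the genes whose symbol matched Col, digits, a and digits. There were 44 of them among the 21937 features measured, and no measured value entered their choice. Each was followed by its level in CPM (a gene's UMIs per 1000000 UMIs of the same cells) in every library and in every cell class set by other marker genes. A UMI is a tag that marks 1 captured RNA molecule.

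Cells came from the mouse telencephalic midline, a dissected region around the cortical hem, and their RNA was sequenced cell by cell in droplets. The hem secretes Wnt and BMP proteins at the border of the developing cortex. The study asked how constant Wnt signalling in hem progenitors bears on the Cajal-Retzius neurons that arise from them. The E14.5 gof library came from Lmx1aCre::Ai9::b-cat gof embryos and the E14.5 control library from Lmx1aCre::Ai9 embryos, each a pool of both hemispheres of 3 male embryos. The E11.5 gof and E11.5 control libraries had the same genotypes, each a pool of 5 male embryos. All groups carried the Cre, active in cells that express or descend from cells expressing Lmx1a, and the Ai9 reporter, which turns on tdTomato after recombination. The b-cat gof allele was present in the gof libraries alone. Each group had 1 library, so no comparison has a replicate or a test: a difference compares 2 pooled libraries and not the genotypes, and every interval is an exact Poisson or exact binomial 95% interval that covers counting error only.

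Collagens are triple-helical proteins of the extracellular matrix. Fibrillar collagens form the fibrils of connective tissue, type IV collagens form the network of basement membranes, type VI forms beaded filaments, fibril-associated collagens decorate fibrils, transmembrane collagens sit in the cell surface and multiplexins lie in and around basement membranes. In the embryonic head the meningeal mesenchyme and the blood vessels lay down most of this matrix, including the basement membrane at the surface of the brain that the end-feet of neural progenitors touch.

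By structure the members fell into 11 fibrillar genes, 6 basement membrane network genes, 3 short-chain network genes, 6 beaded filament genes, 1 anchoring fibril gene, 9 fibril-associated genes, 4 transmembrane genes, 2 multiplexins and 2 other collagens. Some of them are neighbours in the mouse genome (GRCm38). Col4a1 (chr8:11198423-11312826, minus strand) and Col4a2 (chr8:11312805-11449287, plus strand) lie head to head and overlap by 22 bases. Col4a6 (chrX:141165403-141474076, minus strand) and Col4a5 (chrX:141475385-141689234, plus strand) lie head to head with 1308 bases between them, and Col3a1 and Col5a2 lie tail to tail on chromosome 1 with a gap of 24614 bases. On the other strand Col9a3 overlaps Tcfl5, Col10a1 overlaps Nt5dc1 and Col18a1 overlaps Slc19a1. The sources used here do not say whether counting used strand.

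Col23a1 (chr11:51289920-51583918, plus strand), Col16a1 (chr4:130047840-130099283, plus strand), Col28a1 (chr6:7997808-8192617, minus strand) and Col4a6 showed some of the widest gaps between Notum-positive cells of the gof library and control hem cells at E14.5, so the sequence before their starts is printed. The windows end at the base before the annotated start, are given 5′ to 3′ on the gene's strand, and come from RefSeq on GRCm38.p6. For Col16a1 only the 72 bases outside an annotated exon are shown.
Col23a1, chr11:51289670-51289919: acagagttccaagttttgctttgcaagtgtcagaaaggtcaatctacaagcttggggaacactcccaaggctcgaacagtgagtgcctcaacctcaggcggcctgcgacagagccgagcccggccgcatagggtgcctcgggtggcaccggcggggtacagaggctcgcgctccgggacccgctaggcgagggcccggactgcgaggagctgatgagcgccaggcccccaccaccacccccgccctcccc
Col16a1, chr4:130047590-130047661: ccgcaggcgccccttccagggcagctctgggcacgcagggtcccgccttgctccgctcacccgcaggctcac
Col28a1, chr6:8192618-8192867: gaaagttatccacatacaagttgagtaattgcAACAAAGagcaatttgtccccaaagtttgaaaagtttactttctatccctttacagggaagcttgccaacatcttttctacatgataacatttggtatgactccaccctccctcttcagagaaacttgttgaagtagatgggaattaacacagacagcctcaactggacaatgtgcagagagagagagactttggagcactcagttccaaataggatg
Col4a6, chrX:141474077-141474326: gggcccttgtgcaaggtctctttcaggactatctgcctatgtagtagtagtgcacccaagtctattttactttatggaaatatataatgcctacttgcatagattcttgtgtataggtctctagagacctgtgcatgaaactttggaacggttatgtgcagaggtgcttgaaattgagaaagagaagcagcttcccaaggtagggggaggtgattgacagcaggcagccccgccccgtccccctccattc
Capitals mark a match to the binding motif of TCF/LEF proteins, the DNA-binding partners of beta-catenin. The motifs searched on both strands were CTTTGAA, in 4.64% of all RefSeq windows, CTTTGAT, in 3.23%, CTTTGTT, in 4.99%, and CTTTGTA, in 3.12%. They share their first letters, so at a given start and strand at most 1 can match, while matches on opposite strands can overlap. Col28a1 held 1 match, to CTTTGTT on the opposite strand, whose first base lay 218 bases before the start. These letters were not in the windows of the other 3 genes. Over the RefSeq table, 35 of the 44 members had a window and 7 of those held a motif, while 14.9% of all 27025 windows held at least 1.

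The 4 libraries held 6263 to 8677 barcodes and 59594082 to 113821989 UMIs. After filters on genes, mitochondrial share and likely doublets, 5317 cells remained at E14.5 in gof and 6606 in control, and 7024 remained at E11.5 in gof and 6510 in control. Median depth was 14072 UMIs a cell in E14.5 gof and 12885.5 in E14.5 control, against 5644 in E11.5 gof and 8172.5 in E11.5 control. Pairs of libraries shared 12 to 18 barcodes. The doublet caller's own threshold called 0 cells in E11.5 control, so a fixed rate was used throughout. All 44 members had at least 1 UMI in each library. The chemistry reads transcript ends, so counts were not divided by transcript length. Whether intronic reads were counted is not known here, and such reads grow with gene length, so levels and UMI ratios between different collagens describe captured UMIs only.

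Cells were placed in classes by 3 or more detected markers of a class, none of them a collagen. Mesenchymal cells, the meningeal and other connective tissue cells, numbered 71 in E14.5 gof, 40 in E14.5 control, 748 in E11.5 gof and 433 in E11.5 control. Hem cells numbered 177, 561, 1137 and 1712 in the same order, and Notum-positive cells, neural cells with at least 1 UMI of the Wnt target and Wnt inhibitor Notum, numbered 598, 35, 324 and 70. Endothelial, mural and choroid plexus cells were few, and a class with under 20 cells in a library is not reported there: mural cells at E11.5, endothelial cells in E14.5 control and choroid plexus cells in E14.5 gof. Markers kept out of the gates were nearly all higher inside their class than outside it. The exceptions were Crabp2 in mesenchymal cells of both E11.5 libraries, Acta2 in mural cells of E14.5 control, where it had no UMI, Msx1 in hem cells of E11.5 gof, Vim in other progenitors of both E11.5 libraries, and Dkk1 and tdTomato in Notum-positive cells of both control libraries.

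Of the 44 members, 35 reached 10 CPM in at least 1 class and 20 reached 100 CPM. The class with the highest level was mesenchymal for 21 of those 35, mural for 6, choroid plexus for 3, hem for 2, and endothelial, Notum-positive and Cajal-Retzius for 1 each. In summed level, all collagens together took 10501 CPM of mesenchymal RNA in E14.5 gof, 9962 in E14.5 control, 6148 in E11.5 gof and 5803 in E11.5 control. Hem cells gave 572, 768, 441 and 391 CPM in that order. Immune cells, a class known to make little collagen, gave 96.0, 169, 166 and 62.9 CPM and are given below as a background. Single cells weigh on it: 20 of 29 Col3a1 UMIs in E11.5 gof came from 1 cell, as did 16 of 26 Col11a1 UMIs in E14.5 control.

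**Figure D1:**
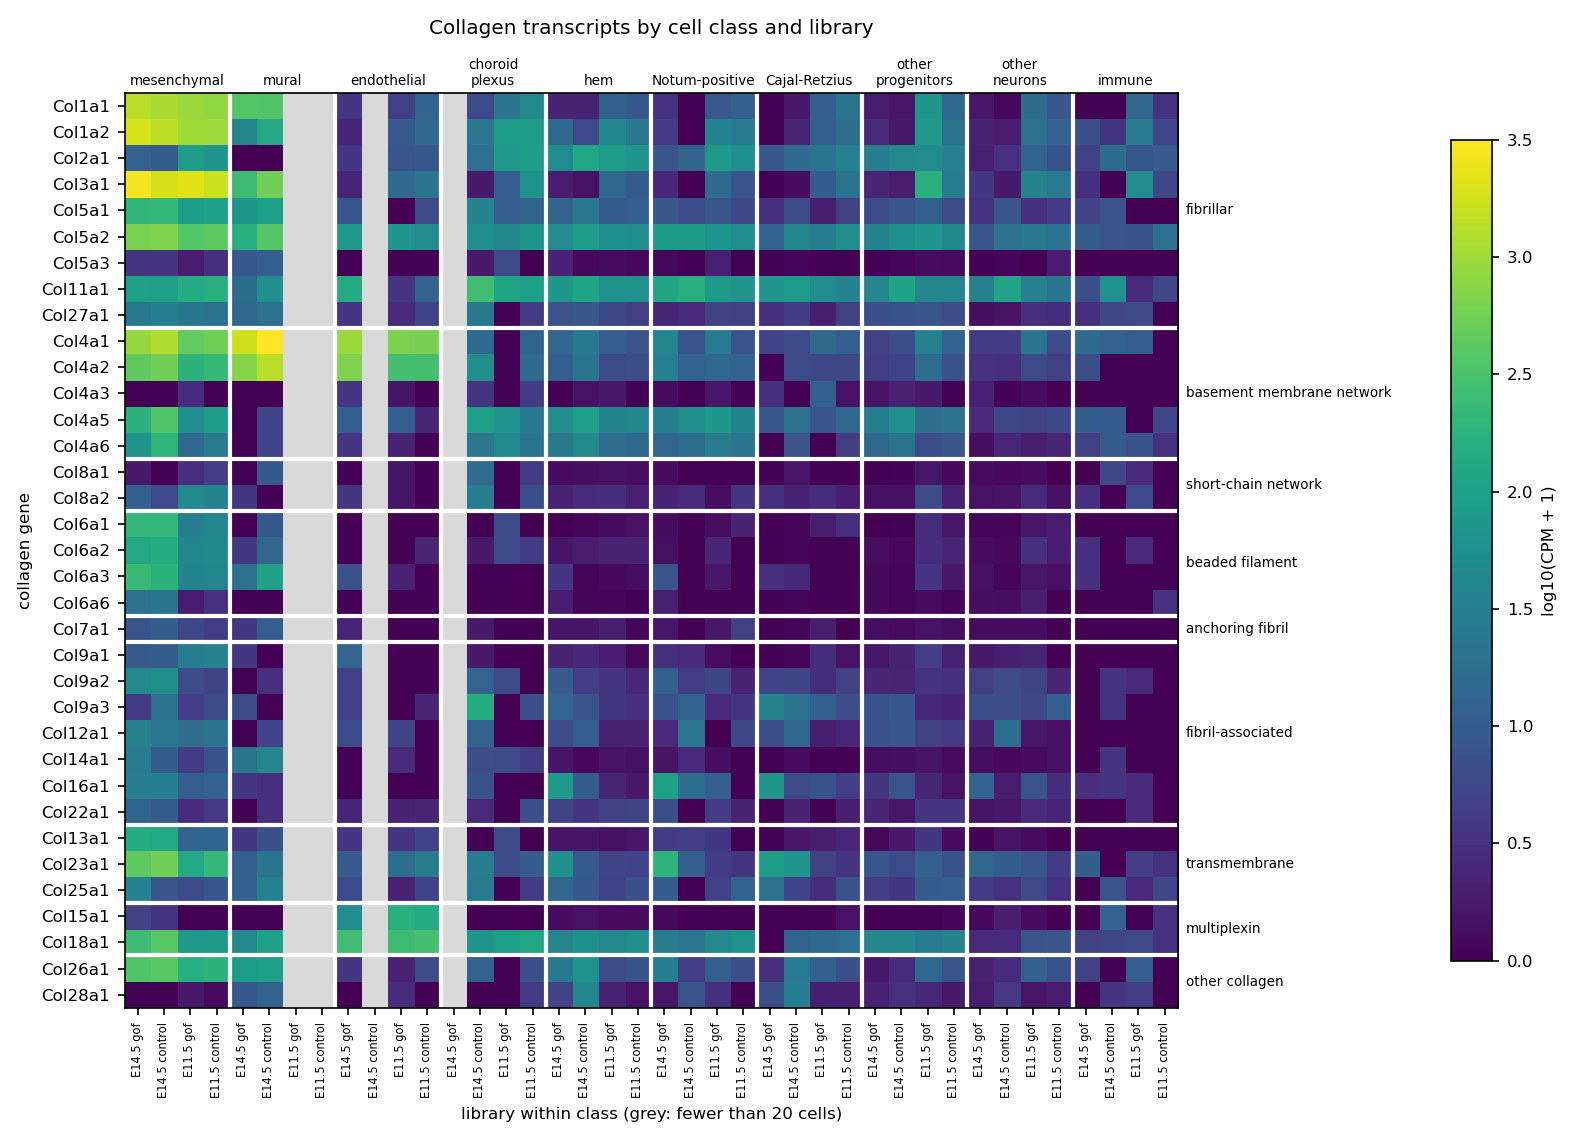
Heat map of log10(CPM + 1) for the 35 collagens that reached 10 CPM in a class, with cell classes and their libraries across and collagen genes by structural kind down. Grey columns are classes of fewer than 20 cells. Mesenchymal and mural columns are brightest for Col1a1, Col3a1 and Col4a1, while Col2a1 and Col11a1 are bright across neural columns.

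Summed over all cells of a library at E11.5, the type I and III collagens and the type IV chains Col4a1 and Col4a2 were higher in gof, while Col4a5, at 27.4 CPM in gof against 28.3 CPM in control, and Col4a6, at 10.1 against 11 CPM, were within the limits. Col3a1, a fibrillar collagen of soft connective tissue, measured 346 CPM in gof against 113 CPM in control, a log2 ratio of 1.61 (ratios throughout are of CPM + 1). Col1a1 and Col1a2, the chains of type I collagen, measured 149 and 170 CPM in gof against 63.5 and 77.0 CPM in control. Their log2 ratios were 1.22 and 1.13. Col4a1 and Col4a2, the common chains of type IV collagen in vessels and meninges, measured 103 and 43.6 CPM in gof against 50.2 and 22.8 CPM in control, log2 ratios of 1.02 and 0.91, and Col26a1 measured 28.5 CPM in gof against 17.6 CPM in control. A member counted as measured when it reached 10 CPM in 1 of the libraries compared, and was called higher or lower when it differed by at least 1.5-fold and its intervals did not overlap. By that rule 6 of 14 measured members were higher and 0 were lower, where 4.39% of all 8413 genes measured were higher and 4.01% lower. The median log2 ratio was 0.50 over the members and -0.11 over all genes.

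Mesenchymal cells were 10.6% of kept cells in E11.5 gof and 6.65% in E11.5 control, and held 53.2% and 45.1% of all collagen UMIs. A further 21.4% of the Col3a1 UMIs in gof and 10.6% in control lay in cells classed as other progenitors. There, 228 cells in gof and 62 in control with at least 5 Col3a1 UMIs each held 88.0% and 80.3% of the class's Col3a1 UMIs. Col3a1 stood at 1563 CPM in the 237 gof cells of this class with 2 mesenchymal markers, too few for the mesenchymal gate. It stood at 18.2 CPM in those with 0 such markers. In control the levels were 528 CPM in 112 cells and 3.86 CPM. Whether the gate missed mesenchymal cells here was not tested. The 8 mesenchymal genes used below to follow free RNA stood in other progenitors at 16.4% of their mesenchymal level in E11.5 gof and 4.55% in E11.5 control. The part of these shares in the whole-library difference was not tested.

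At E14.5 the whole libraries differed in both directions. Fibrillar Col3a1 measured 55.6 CPM in gof against 13 CPM in control (log2 ratio 2.02), Col1a2 measured 41.7 against 9.51 CPM (2.02) and Col1a1 measured 27.5 against 7.86 CPM (1.69). Col16a1, a fibril-associated collagen, measured 20.5 CPM in gof against 5.46 CPM in control (1.74). Transmembrane Col23a1 was 2.75-fold higher (1.46), at 41.6 CPM in gof (3479 UMIs, against 1441 UMIs in control). These were the 5 members called higher. Lower in gof were Col12a1, another fibril-associated chain, at 4.78 CPM in gof against 11.1 CPM in control (-1.07), and Col9a3, a chain of type IX collagen, at 7.29 against 15.5 CPM (-0.99). Col11a1, a fibrillar chain that also assembles with type II, measured 57.5 CPM in gof against 109 CPM in control (-0.91). Col2a1, the type II collagen of cartilage and of early neuroepithelium, measured 19.5 against 35.5 CPM (-0.84), and Col4a5 measured 26.4 against 43.6 CPM (-0.70). Thus 5 of 17 measured members were higher and 5 lower, where 3.04% of all genes were higher and 8.10% lower. Mesenchymal cells made up 1.34% of kept cells in E14.5 gof and 0.606% in E14.5 control. Outside the non-neural and mixed classes 2 members were higher, Col16a1 (1.77) and Col23a1 (1.53).

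**Figure D2:**
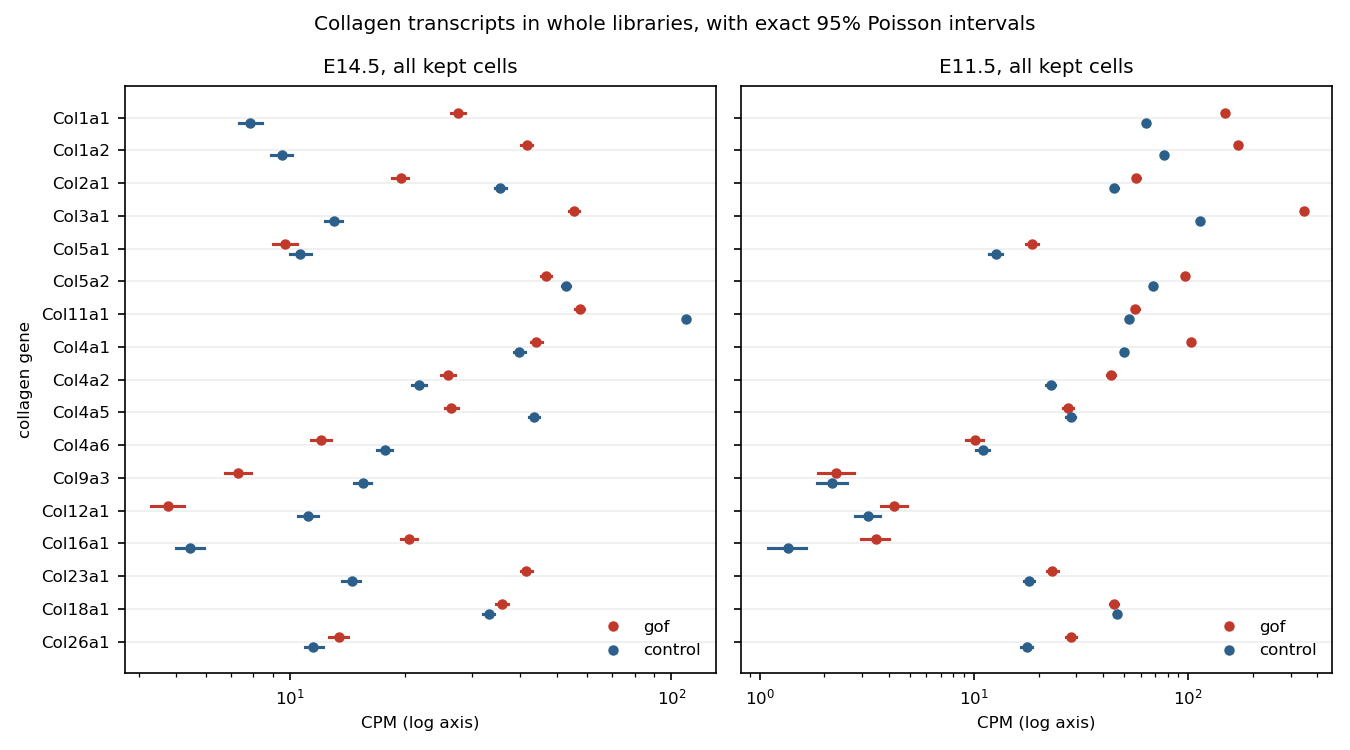
CPM (log axis) of the 17 collagens with at least 10 CPM in a whole library, E14.5 on the left and E11.5 on the right, gof in red and control in blue. Points are 1 library each and lines are exact 95% Poisson intervals, hidden by the point where narrow. Col1a1, Col1a2 and Col3a1 lie further right in gof at both ages, and Col11a1 and Col2a1 lie further right in control at E14.5.

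Within mesenchymal cells Col3a1 and Col1a2 led in every library, and Col1a1 came next except in E14.5 control, where Col4a1 stood above it at 1224 CPM. In CPM, Col3a1 measured 2749 in E14.5 gof, 1861 in E14.5 control, 2131 in E11.5 gof and 1586 in E11.5 control. Col1a2 measured 1933, 1409, 1012 and 967 CPM in the same order, and Col1a1 measured 1311, 1141, 947 and 846 CPM. These 3 genes were nearer to each other between gof and control within the class than in the whole libraries, and none passed the limits at either age. Col3a1 at E14.5 was just under the fold limit, 1.48-fold higher in gof, with separate intervals (2659 to 2842 CPM in gof and 1732 to 1998 CPM in control). Type I collagen is a trimer of 2 chains from Col1a1 and 1 from Col1a2, yet the UMI ratio of Col1a1 to Col1a2 was below 1 in all 4 libraries, at 0.678 in E14.5 gof, 0.810 in E14.5 control, 0.936 in E11.5 gof and 0.874 in E11.5 control. Fibrillar genes held 66.2%, 54.5%, 78.3% and 71.8% of the mesenchymal collagen UMIs in that order, and basement membrane genes 14.8%, 23.3%, 11.7% and 15.3%.

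Few members differed between gof and control mesenchymal cells, among them the partner chains Col4a5 and Col4a6. Col4a6, a chain of the type IV trimer found in some epithelial and smooth muscle basement membranes, measured 63.4 CPM in E14.5 gof and 192 CPM in E14.5 control (81 and 79 UMIs, log2 ratio -1.59), and 14.7 CPM in E11.5 gof against 25.9 CPM in E11.5 control (-0.77). Its neighbour and partner chain Col4a5 measured 169.8 CPM in E14.5 gof and 350.3 CPM in E14.5 control (-1.04), and 54.8 against 81.5 CPM at E11.5, within the limits. Col18a1, the multiplexin whose cleaved end is endostatin, measured 253 CPM in E14.5 gof and 387 CPM in E14.5 control (-0.61), a call that 5 other ways of processing lost. At E14.5 Col9a3 had 4 UMIs in gof and 8 in control (3.13 and 19.5 CPM, -2.31). Col25a1, a transmembrane collagen known from motor neurons, had 44 UMIs in gof and 3 in control (34.4 and 7.30 CPM, 2.09), and 11 of the 44 came from 1 cell. Col23a1 measured 129 CPM in E11.5 gof and 214 CPM in E11.5 control (-0.73), and at E14.5 it was within the limits at 429 and 555 CPM. In all, 1 of 28 measured members was higher and 4 were lower at E14.5, where 2.28% of all genes were higher and 5.89% lower. At E11.5, 0 of 23 were higher and 2 were lower, where 3.47% of all genes were higher and 3.93% lower. The E14.5 classes held 71 and 40 cells, so these calls rest on few cells. With gates set after thinning each cell to 3000 UMIs, 2 members were lower at E14.5, and at E11.5 1 was higher and 1 was lower.

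Mesenchymal cells of the later age held more collagen of most kinds than those of the earlier age, in gof as in control. Col13a1, a transmembrane collagen of cell junctions, measured 146 CPM at E14.5 and 12.1 CPM at E11.5 in gof (log2 ratio 3.48), and 139 against 12.5 CPM in control (3.37). The beaded filament chain Col6a1 measured 205 CPM at E14.5 and 31.9 CPM at E11.5 in gof, and 207 against 39.5 CPM in control. Its partner Col6a3 measured 235 against 37.5 CPM in gof against 180 against 39.2 CPM in control, and Col6a2 measured 129.9 against 39.0 CPM in gof against 144 against 42.0 CPM in control. These 3 chains of type VI collagen were thus called higher at E14.5 in both genotypes. So was the lower-abundance Col6a6, with 18.8 CPM at E14.5 and 0.932 CPM at E11.5 in gof and 21.9 against 2.23 CPM in control. The other beaded filament genes, Col6a4 and Col6a5, stayed under 10 CPM and did not count as measured. Col4a6 measured 63.4 CPM at E14.5 and 14.7 CPM at E11.5 in gof (2.03), and 192 against 25.9 CPM in control (2.85). Col18a1 measured 253 against 74.8 CPM in gof (1.74) and 387 against 73.8 CPM in control (2.38). Among fibril-associated chains Col9a2 measured 43.0 CPM at E14.5 and 5.22 CPM at E11.5 in gof, where 22 of the 55 later UMIs came from 1 cell, and 53.5 against 4.17 CPM in control. Col14a1, called higher in gof, measured 25.8 against 3.17 CPM.

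A few members were lower at E14.5. Col2a1 measured 11.7 CPM at E14.5 and 86.9 CPM at E11.5 in gof mesenchymal cells (log2 ratio -2.79), and 9.73 against 66.2 CPM in control (-2.65). Col9a1, a type IX chain, measured 8.61 CPM at E14.5 and 28.2 CPM at E11.5 in gof (-1.60), and 9.73 against 34.8 CPM in control (-1.74). The short-chain collagen Col8a2 measured 11 against 43.1 CPM in gof (-1.88) and 4.87 against 36.2 CPM in control (-2.66). Col11a1 measured 99.4 CPM at E14.5 and 143 CPM at E11.5 in gof, within the limits, and 97.3 against 155 CPM in control (-0.66), and that ratio turned positive when the guard against neural markers was left out of the gates. By count, 21 of 28 measured members were higher and 3 lower at E14.5 in gof, where 35.2% of all genes were higher and 8.04% lower. In control 16 of 26 were higher and 4 lower, where 28.1% of all genes were higher and 6.60% lower. The median gene was itself higher at E14.5, by 0.48 in gof and 0.54 in control on the log2 scale, against member medians of 1.35 and 1.22. With ratios centred on the median gene, Col5a2, Col1a2, Col4a1 and Col12a1 no longer passed in gof, nor Col5a1, Col5a2 and Col26a1 in control. Age and library cannot be told apart here, since each age of a genotype is 1 pool.

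**Figure D3:**
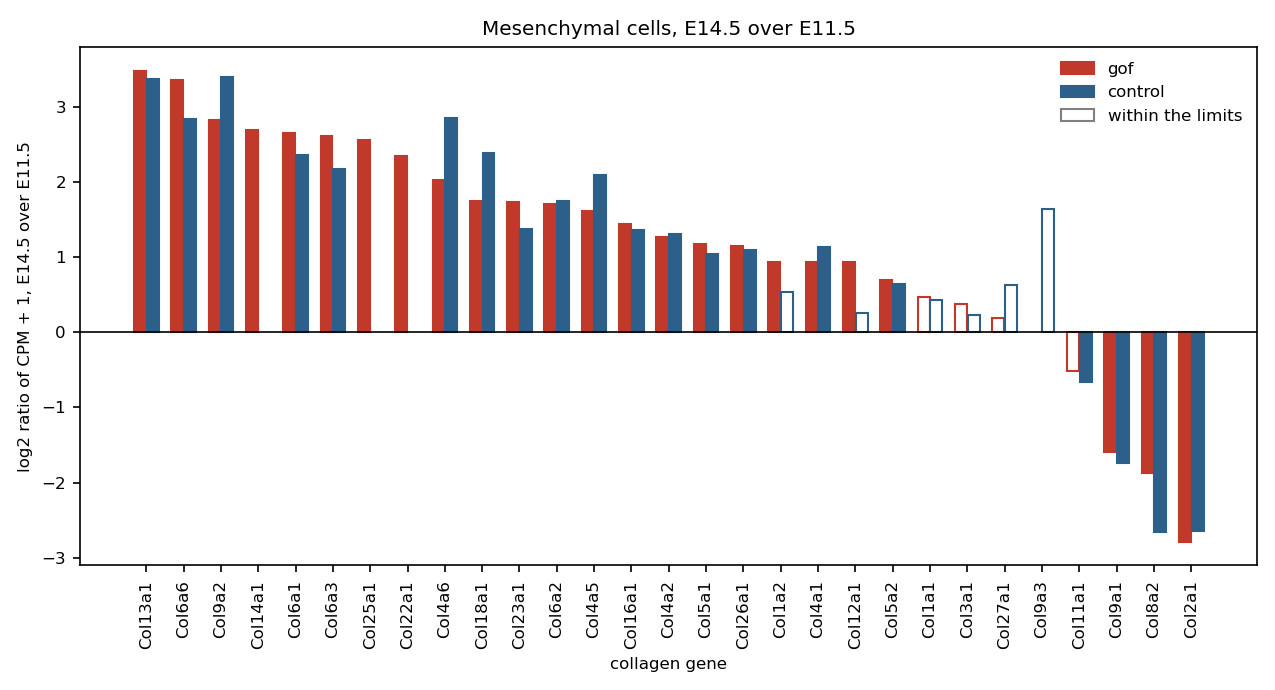
Log2 ratio of CPM + 1 in mesenchymal cells, E14.5 over E11.5, for each collagen with at least 10 CPM at either age, gof in red and control in blue. Filled bars passed the limits and open bars did not. Bars run from Col13a1 at 3.48 in gof to Col2a1 at -2.79, with like signs in gof and control wherever both passed.

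Blood vessel cells were led by the type IV chains that every vascular basement membrane holds. In endothelial cells Col4a1 measured 953 CPM in E14.5 gof (21 cells), 644 in E11.5 gof (129 cells) and 599 in E11.5 control (48 cells). A Col4a1 UMI was found in 66.7%, 93.8% and 91.7% of these cells in that order, and 161 of the 751 UMIs in E14.5 gof came from 1 cell. Col4a2 measured 659.8, 286 and 294 CPM in those libraries and Col18a1 measured 256, 251 and 291 CPM. Col15a1, a multiplexin of vessel basement membranes, measured 49.5 CPM in E14.5 gof, 166 in E11.5 gof and 143 in E11.5 control. Among members that reached 10 CPM in a class, it was the only one with its highest level in endothelial cells. At E11.5, 62.8% of endothelial cells in gof and 56.2% in control had a Col15a1 UMI. Endothelial members measured at E11.5 numbered 11, of which 0 were called higher and 0 lower in gof, where 1.40% of all genes were higher and 2.51% lower. In E14.5 gof, 113 UMIs of Col11a1 (143 CPM) came from 12 of the 21 cells, while E11.5 gave 2.38 CPM in gof against 12.1 CPM in control.

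Mural cells, the pericytes and smooth muscle of vessels, had the highest Col4a1 and Col4a2 levels of any class. At E14.5 Col4a1 measured 1770.1 CPM in 20 gof cells and 3312 CPM in 30 control cells, a log2 ratio of -0.90. Col4a2 measured 730.5 CPM in gof against 1380.3 CPM in control (-0.92). The ratio of Col4a1 to Col4a2 UMIs was 2.42 in gof and 2.40 in control, so both chains were lower together. Fibrillar Col3a1 measured 246 CPM in gof against 569 CPM in control (-1.21), Col5a2 measured 161 against 371 CPM (-1.20) and Col11a1 16.4 against 56.5 CPM (-1.72). Col1a2 measured 38.3 CPM in gof against 129 CPM in control (-1.73), where 24 of 64 control UMIs came from 1 cell and where the ratio turned to 0.28 with gates on thinned cells, and Col6a3 measured 19.2 against 101 CPM (-2.34), where 17 of 50 control UMIs came from 1 cell. Col1a1 was within the limits, at 367 CPM in gof against 357 CPM in control. These 7 of 19 measured members were lower and 0 were higher, where 3.56% of all genes were lower and 1.76% higher. The laminin genes Lama4 and Lama2, which encode further parts of vessel and muscle basement membranes, were lower too, at 104 and 30.1 CPM in gof against 333 and 96.9 CPM in control. These are 20 and 30 cells of 1 library each.

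The choroid plexus, the secretory epithelium that grows beside the hem, was counted in 85 cells of E14.5 control, 31 of E11.5 gof and 41 of E11.5 control. Col11a1 measured 269.8 CPM in E14.5 control and 113 CPM in E11.5 gof, the highest of the members in both, and 93.7 CPM in E11.5 control, where Col18a1 stood above it. Col9a3 measured 147 CPM in E14.5 control, 0 CPM in E11.5 gof and 6.25 CPM (2 UMIs) in E11.5 control, and the later library's 181 UMIs lay in 31 of its 85 cells. Col18a1 measured 66.6 CPM in E14.5 control, 97.2 CPM in E11.5 gof and 122 CPM in E11.5 control. The short-chain Col8a2 and Col8a1 measured 28.4 and 17.1 CPM in E14.5 control. Col2a1 measured 18.7 CPM in E14.5 control, 76.8 CPM in E11.5 gof and 87.5 CPM in E11.5 control. Col1a2 measured 23.6, 81.9 and 84.4 CPM in that order, and 16 of its 27 UMIs in E11.5 control came from 1 cell. By the 8 reference genes described below for hem cells, mesenchymal RNA would give 260.0, 61.8 and 123 CPM of Col1a2, and its observed intervals did not lie above these levels. Of the members with at least 10 CPM, 9 of 19 lay above the level of mesenchymal RNA in E14.5 control, 5 of 10 in E11.5 gof and 5 of 12 in E11.5 control. Col11a1 and Col2a1 were above it in all 3 libraries and Col9a3, Col8a1 and Col8a2 in E14.5 control, while Col18a1 was above it in both E11.5 libraries but not in E14.5 control. Col4a1 and Col4a2 stood in another proportion than in vessels and meninges: 18 and 64 UMIs in E14.5 control, a ratio of 0.281 (interval 0.157 to 0.481), against 2.21 in mesenchymal cells of that library. Both were below the 8-gene level of mesenchymal RNA, which would give 226 CPM of Col4a1 and 102 CPM of Col4a2. Their observed levels were 14.6 and 52.0 CPM. Col3a1, the leading mesenchymal collagen, had 1 UMI in these cells (0.813 CPM), against 1861 CPM in mesenchymal cells of that library. The 8-gene level is thus only an upper level here. By Lum alone mesenchymal RNA would give 1.89 CPM of Col4a1 and 0.858 CPM of Col4a2, and all 19 members lay above its level in that library. Lum stood at only 0.535 CPM outside mesenchymal cells of that library, so this level rests on very few UMIs and has no interval. A level near 0 places nearly any member above it, so this count cannot decide the source. At E11.5, 0 of 12 measured members were called higher and 0 lower in gof, where 0.605% of all genes were higher and 0.854% lower.

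Hem cells were led by other collagens than the mesenchyme. Col2a1, highest of all members in 3 of the 4 libraries, measured 50 CPM in E14.5 gof, 121 in E14.5 control, 89.6 in E11.5 gof and 65.4 in E11.5 control. Col11a1 measured 71.4, 109, 60.8 and 61.0 CPM in the same order, Col5a2, a chain of the fibrillar type V, 47.6, 86.9, 56.2 and 53.9 CPM, and Col4a5 53.3, 92.5, 36.6 and 38.4 CPM. By contrast Col3a1, the first collagen of the mesenchyme, measured 0.893 CPM in E14.5 gof, 0.475 in E14.5 control, 13.9 in E11.5 gof and 8.66 in E11.5 control. The ratio of Col11a1 to Col5a2 UMIs was 1.5, 1.25, 1.08 and 1.13 in hem cells in that order, and 0.161, 0.148, 0.377 and 0.367 in mesenchymal cells.

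Free RNA from mesenchymal cells can place collagen UMIs in droplets that hold neural cells. Its level was set from 8 other mesenchymal genes: their summed CPM in hem cells was 2.93% of that in mesenchymal cells in E14.5 gof, 8.25% in E14.5 control, 8.34% in E11.5 gof and 4.37% in E11.5 control. That share times the mesenchymal CPM of a collagen gives the level that mesenchymal RNA would bring, an upper level where hem cells express the 8 genes themselves. Col3a1 stood at a smaller share of its mesenchymal level in every library, for example at 0.475 CPM against 1861 CPM in E14.5 control. The 8-gene level is thus only an upper level in all 4 libraries. Of the members with at least 10 CPM in hem cells, 12 of 15 lay above it in E14.5 gof, 10 of 12 in E14.5 control, 6 of 10 in E11.5 gof and 7 of 8 in E11.5 control. Col2a1, Col4a5, Col4a6, Col5a2, Col11a1 and Col18a1 were above it in all 4 libraries. Col2a1 in E14.5 control, for example, was at 121 CPM where 0.803 CPM would come from mesenchymal RNA. The members below it in E11.5 gof were Col1a1, Col1a2, Col3a1 and Col4a1, with Col1a2 at 41.0 CPM where mesenchymal RNA would give 84.4 CPM. Col1a2 did not keep its mesenchymal proportion to Col1a1. The UMI ratio of Col1a1 to Col1a2 in hem cells was 0.270 (0.215 to 0.336) in E11.5 gof and 0.362 (0.302 to 0.432) in E11.5 control. In mesenchymal cells it was 0.936 and 0.874. The source of these Col1a2 UMIs was not tested.

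**Figure D4:**
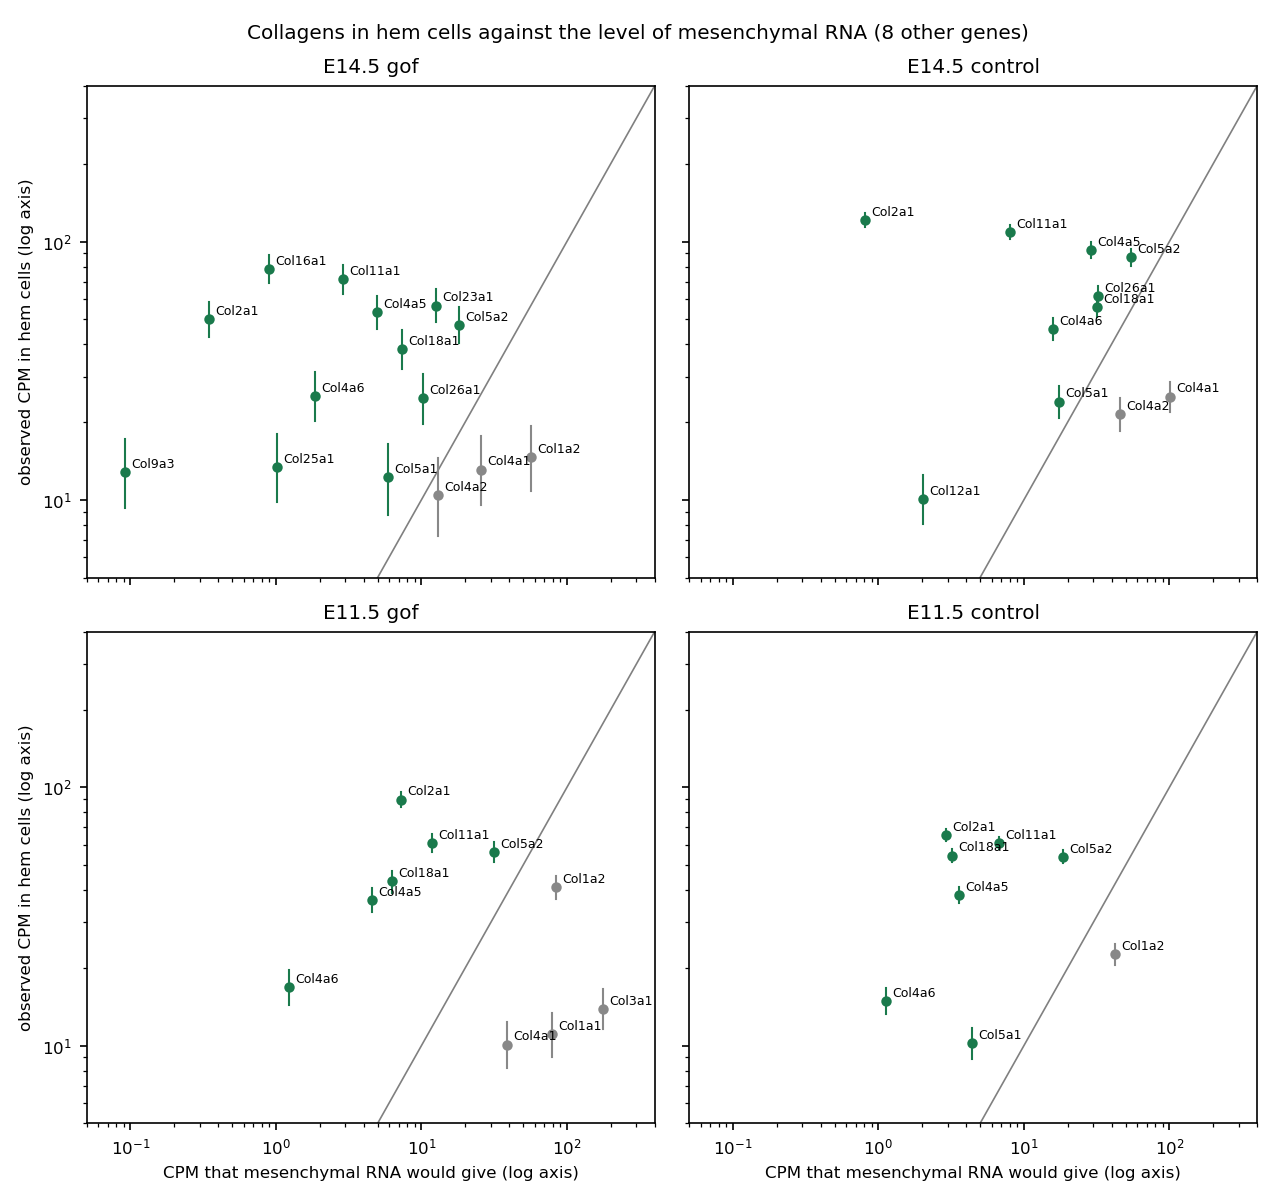
Observed CPM in hem cells (vertical, log axis, with exact 95% Poisson intervals) against the CPM that mesenchymal RNA would give (horizontal, log axis), 1 panel per library, for collagens of at least 10 CPM. Green points lie above the grey line of equality with their whole interval and grey points do not. Col2a1 and Col11a1 lie far above the line in each panel, and Col1a2 lies below it in 3 of the 4 panels, with under 10 CPM in E14.5 control. Col28a1 in E14.5 control is not drawn because mesenchymal cells of that library had no UMI of it.

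Between gof and control, hem cells at E11.5 differed in 2 of 11 measured members, both of them below the level of mesenchymal RNA in that age's gof library by the 8 genes. By 4 genes, mesenchymal RNA would give 24.4 CPM of Col1a2 and by Lum alone 8.10 CPM, and Col1a2 in gof stood above both levels, while Col3a1 stayed below its levels of 51.5 and 17.1 CPM. Col1a2 measured 41.0 CPM in gof against 22.6 CPM in control (log2 ratio 0.83). Col3a1 measured 13.9 against 8.66 CPM (0.63), with 27 of 132 gof UMIs in 1 cell, and its ratio turned negative under 3 other ways of processing. After thinning to 3000 UMIs, 8.29% of hem cells in E11.5 gof and 4.78% in E11.5 control had a Col1a2 UMI (17.1% and 14.3% before thinning), where 6.15% of 65 immune cells in gof and 0 of 36 in control had one. For Col3a1 the thinned shares were 2.64% of hem cells in gof and 1.48% in control, at or below the 4.62% and 2.78% of immune cells. Members called lower numbered 0, and 2.54% of all genes were called higher and 3.61% lower.

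Hem cells at E14.5 differed in 13 of 17 measured members. The 3 that were higher in gof were Col16a1 at 78.3 CPM in gof against 9.74 CPM in control (2.88), Col23a1 at 56.5 against 8.67 CPM (2.57) and Col1a2 at 14.6 against 4.87 CPM (1.41), where 8.59% of all genes were higher. The 10 that were lower included Col28a1, a collagen known from peripheral nerve, at 4.17 CPM in gof against 39.5 CPM in control (-2.97), Col26a1 at 24.7 against 61.7 CPM (-1.29) and Col2a1 at 50 against 121 CPM (-1.26), where 12% of all genes were lower. Col4a2, Col5a1, Col4a1, Col5a2, Col4a6, Col4a5 and Col11a1 were lower with log2 ratios between -0.97 and -0.60. With gates set on cells thinned to 3000 UMIs, 2 members were lower, Col28a1 and Col2a1, and the ratio of Col11a1 was 0.56. Hem cells had a median of 16459 UMIs in E14.5 gof and 11738 in E14.5 control, and the part of depth in the gates was not tested beyond this thinning. The gof hem class here leaves out cells with a Notum UMI.

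Notum-positive cells of the gof libraries, set against control hem cells, held the widest log2 ratios of called members of any comparison made. Gate and genotype differ together in this comparison and cannot be told apart. At E14.5 Col23a1, a transmembrane collagen whose ectodomain is shed, measured 189 CPM (180.1 to 198.0) in 598 Notum-positive gof cells and 8.67 CPM (6.79 to 10.9) in 561 control hem cells, a 19.6-fold difference (log2 ratio 4.29). Its 1823 UMIs came from 312 of the 598 cells, with at most 45 from 1 cell. Col16a1 measured 99.3 CPM (93.1 to 106) in Notum-positive gof cells and 9.74 CPM (7.74 to 12.1) in control hem cells, 9.34-fold higher (3.22). Both exceeded what mesenchymal RNA would give, 17.1 CPM for Col23a1 and 1.22 CPM for Col16a1. After thinning, 30.2% of Notum-positive gof cells and 2.21% of control hem cells had a Col23a1 UMI (52.2% and 8.91% before), against 0 of 31 immune cells in gof and 0 of 28 in control, whose exact intervals reach 11.2% and 12.3%. For Col16a1 the thinned shares were 17.5% and 2.58% (32.3% and 9.98% before), against 0 of 31 immune cells in gof and 3.57% of 28 in control. Smaller differences were found for Col9a2 at 11.1 CPM in Notum-positive gof cells and 3.44 CPM in control hem cells (1.44), Col4a1 at 38.9 against 25.1 CPM (0.62) and Col4a2 at 33.2 against 21.4 CPM (0.61). The last pair just passed the fold limit of 1.5 and lost the call under 2 other ways of processing.

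Several collagens of the control hem were lower in Notum-positive gof cells at E14.5. Of these, Col28a1, Col2a1, Col26a1, Col5a1 and Col4a6 were also lower in the few control Notum-positive cells than in control hem cells, as given below. Col28a1 measured 0.621 CPM in Notum-positive gof cells (6 UMIs) and 39.5 CPM in control hem cells (333 UMIs), 25.0-fold lower. Col2a1 measured 7.76 against 121 CPM, 13.9-fold lower, and 1.91% of the Notum-positive cells and 26.9% of the hem cells had a Col2a1 UMI after thinning. Col12a1 measured 1.66 CPM in Notum-positive gof cells and 10.1 CPM in control hem cells (-2.06), Col4a6 13.5 against 45.8 CPM (-1.70), Col4a5 30.8 against 92.5 CPM (-1.55) and Col5a1 7.56 against 24.0 CPM (-1.55). Col26a1, at 31.9 against 61.7 CPM (-0.93, but 0.02 with gates of at least 2 markers), and Col18a1, at 29.7 against 55.7 CPM (-0.88), completed the 8 lower members. Col11a1 was within the limits at 115 and 109 CPM. Of 15 measured members 5 were higher and 8 lower, where 11.1% of all genes were higher and 23.0% lower. Fibril-associated and transmembrane kinds held 17.6% and 27.0% of the collagen UMIs of these cells, against 5.01% and 2.30% in control hem cells, while fibrillar genes held 29.7% against 47.3%. Col16a1 (959 UMIs) gave most of the fibril-associated part and Col23a1 (1823 UMIs) most of the transmembrane part, while the fibril-associated Col12a1 was lower.

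**Figure D5:**
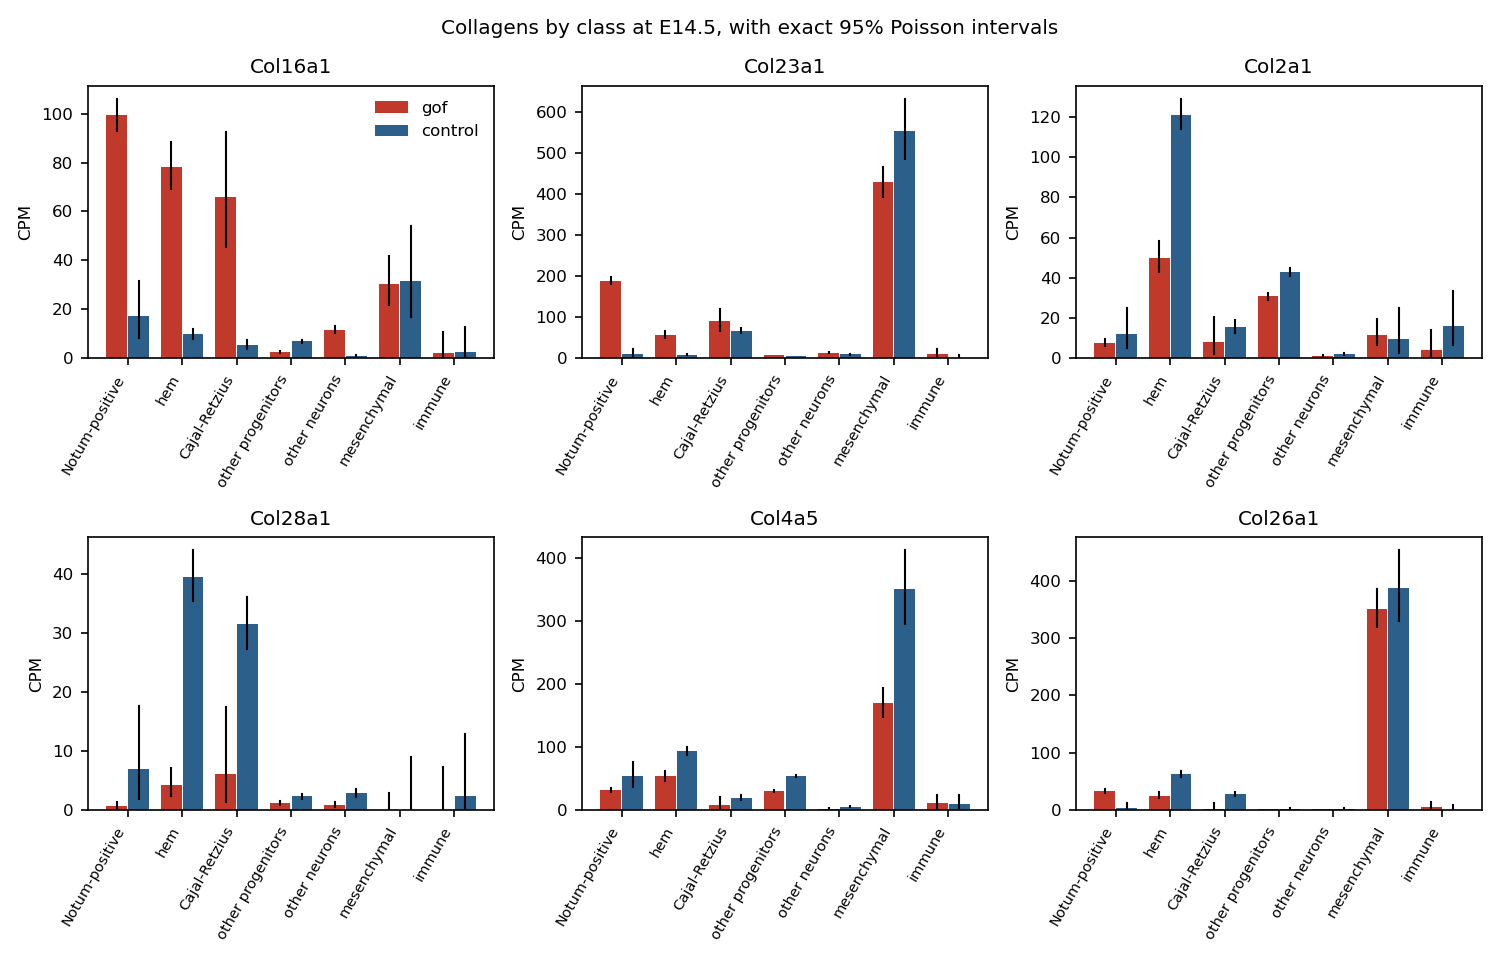
CPM of 6 collagens at E14.5 in 7 cell classes, gof in red and control in blue, bars from 0 with exact 95% Poisson intervals. Col16a1 is high in gof Notum-positive, hem and Cajal-Retzius cells, Col23a1 is highest in mesenchymal cells of both libraries, and Col28a1 is high in control hem and Cajal-Retzius cells.

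At E11.5 the same comparison had 7 of 13 measured members higher and 0 lower, where 7.76% of all genes were higher and 8.85% lower. Col16a1 was already higher, at 10.7 CPM (31 UMIs) in 324 Notum-positive gof cells and 0.718 CPM (15 UMIs) in 1712 control hem cells (2.76). The other 6 included 4 type IV chains: Col4a1 at 25.8 CPM in Notum-positive gof cells and 6.94 CPM in control hem cells (1.76), Col4a2 at 13.8 against 5.79 CPM (1.12), Col4a6 at 29.2 against 14.9 CPM (0.92) and Col4a5 at 71.9 against 38.4 CPM (0.89). Col4a5 and Col4a6 were thus above control hem cells at E11.5 and below them at E14.5. Mesenchymal RNA would give 31.6 CPM of Col4a1 and 12.7 CPM of Col4a2 in the gof cells, so their levels did not stand above it by these 8 genes, while it would give 3.75 CPM of Col4a5 and 1.01 CPM of Col4a6. With 4 of the reference genes it would give 9.95 CPM of Col4a1 and 3.99 CPM of Col4a2, and both stood above it, as they did with Lum alone. Col3a1 at 15.8 against 8.66 CPM (0.80), with 14 of 46 UMIs from 1 cell, and Col1a2 at 37.5 against 22.6 CPM (0.70) were also called higher. Mesenchymal RNA would give 146 CPM of Col3a1 by the 8 genes, 46.0 CPM by 4 genes and 22.7 CPM by Lum alone, all above the observed level. For Col1a2 it would give 69.3 CPM by the 8 genes, above the observed level, but 21.8 CPM by 4 genes and 10.8 CPM by Lum alone, below it. Col23a1 measured 3.10 CPM in Notum-positive gof cells and 4.02 CPM in control hem cells at E11.5. When cells needed 2000 genes and no more than 5% mitochondrial UMIs, 3 members were higher at E11.5.

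Notum-positive cells of the control libraries were few, and Dkk1 and tdTomato were not enriched in them. Col23a1 measured 10.3 CPM in the 35 such cells at E14.5 (6 UMIs) and Col16a1 17.2 CPM (10 UMIs), while Col2a1 measured 12 CPM there. Col4a6 also measured 17.2 CPM (10 UMIs), against 13.5 CPM in Notum-positive gof cells and 45.8 CPM in control hem cells. Col28a1, Col26a1 and Col5a1 stayed under 10 CPM there. A Col18a1 UMI was found in 28.6% of these cells, 26.1% of Notum-positive gof cells and 43.5% of control hem cells. For Col4a5 the shares were 42.9%, 29.1% and 58.3%. Col12a1 had 13 UMIs there, 7 of them from 1 cell. At E11.5 the Col16a1 count of control Notum-positive cells was 0 over 70 cells. That allows a level of up to 3.58 CPM by the limit of 3 counts, and up to 4.41 CPM by the exact interval. Cajal-Retzius cells, the early neurons made by the hem, numbered 33 in E14.5 gof and 479 in E14.5 control. Their Col16a1 measured 65.9 CPM in E14.5 gof and 5.32 CPM in E14.5 control, with 18 of 33 gof UMIs from 1 cell. Col23a1 measured 89.8 against 67.2 CPM, and Col28a1 5.99 (3 UMIs) against 31.5 CPM. No comparison was planned in this class.

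Genes that build, cross-link, bind or degrade collagen were followed in 5 lists of 67 genes in all. Basement membrane partners of type IV collagen (laminins, nidogens, perlecan and agrin) were higher in 5 of 9 measured genes in the whole E11.5 gof library, among them Nid1 at 27.1 CPM in gof against 11.8 CPM in control, where 4.39% of all genes were higher. In mesenchymal cells between ages, 9 of 10 of these partners were higher at E14.5 in gof and 8 of 10 in control, where 35.2% of all genes were higher in gof and 28.1% in control, with Nid2 at 264 CPM at E14.5 and 46.4 CPM at E11.5 in gof and 214 against 59.6 CPM in control. Against the same shares of all genes, collagen receptors were higher in 5 of 6 measured genes in gof and in 6 of 6 in control. Lox, which cross-links collagen, measured 196 CPM at E14.5 and 11.4 CPM at E11.5 in gof mesenchymal cells, and 112 against 10.9 CPM in control. Of the folding and modifying enzymes, 11 of 18 were higher at E14.5 in gof, and 3 of 19 in control, a smaller share than that of all genes there. Sparc, a collagen-binding matrix protein, was lower in gof mesenchymal cells at E11.5 with 431 CPM in gof against 729.8 CPM in control, and higher at E14.5 with 1304 against 825 CPM. Serpinh1, the collagen chaperone HSP47, did not pass the limits in mesenchymal cells, with 1111 CPM in E14.5 gof, 898 in E14.5 control, 889 in E11.5 gof and 1013 in E11.5 control.

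In Notum-positive gof cells at E14.5, 4 of 7 measured collagen receptors were lower than in control hem cells and 1 was higher, where 23.0% of all genes were lower and 11.1% higher. Adgrg1, a receptor for type III collagen on neural progenitors, measured 33.6 CPM in Notum-positive gof cells and 88.3 CPM in control hem cells (-1.37). Ddr2 measured 2.90 against 27.3 CPM (-2.86) and Itga2 1.24 against 19.7 CPM (-3.21), while Itga1 measured 18.2 against 6.05 CPM (1.45). Tll1, a protease of the family that trims procollagen ends, measured 122 CPM in Notum-positive gof cells and 9.97 CPM in control hem cells (3.49), and Loxl1 measured 14.8 against 49.7 CPM (-1.68). In gof hem cells at E14.5, Adgrg1 measured 58.0 CPM in gof against 88.3 CPM in control (-0.60), Serpinh1 157 against 242 CPM (-0.63) and Sparc 253 against 475 CPM (-0.91). The procollagen protease Adamts3 was higher there, at 46.4 CPM in gof against 19.6 CPM in control (1.20).

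The 9 members that stayed under 10 CPM in every class were Col4a4, Col6a4, Col6a5, Col10a1, Col11a2, Col17a1, Col19a1, Col20a1 and Col24a1. Their highest class levels ran from 0.356 CPM for Col10a1, the collagen of hypertrophic cartilage, to 9.73 CPM for Col24a1, just under the limit. Just over it were Col5a3 and Col7a1, each at 10.1 CPM in mural cells of E14.5 control on 5 UMIs, and Col4a3 at 11.4 CPM in Cajal-Retzius cells of E11.5 gof, where all 12 UMIs came from 1 cell. Col22a1 reached 12.5 CPM in mesenchymal cells of E14.5 gof, where 7 of 16 UMIs came from 1 cell, and Col27a1 31.6 CPM in mesenchymal cells of E14.5 control.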

How the data were processed

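Single cells were captured with 10x Chromium 3' v3.1 chemistry, per the labels' protocols. The authors deposited raw UMI counts per gene and barcode for each library, and per the submitters' processing notes these were made with Cell Ranger 7.1.0 on mm10. The annotation and whether intronic reads were counted were not given there. The lowest barcode totals were 500 to 501 UMIs, so barcodes had been filtered before deposit. Sample titles shorten the ages to E11 and E14; the series text's E11.5 and E14.5 are used.

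Kept barcodes had 1000 genes or more and no more than 10% mitochondrial UMIs, and the highest Scrublet scores were removed at 0.8% per 1000 barcodes (Python 3.11.15, scanpy 1.11.5, numpy 2.4.6, scipy 1.17.1, pandas 2.3.3). Non-neural classes needed 3 markers, a higher detected share than a neural marker set and 1.5 times the share of the next panel. Neural cells with a Notum UMI came next, then Cajal-Retzius, choroid plexus and hem cells. Counts were summed per class and library, with exact Poisson intervals, and shares had exact Clopper-Pearson intervals. Ambient RNA was not removed. The call rule was tested on simulated data. The members, lists and gates were chosen with earlier results of these data known. Genes are named by rule: the 3 leading members of each class, the 4 highest and 4 lowest called members of each comparison, 14 preset members, Adgrg1, Serpinh1 and Sparc, and pathway genes past the limits among the 2 highest and 2 lowest of a list. Members named for spread or low counts were chosen after their values were seen. Gene positions are those of the GENCODE annotation on GRCm38 matched by gene ID.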

Additional observations from a re-analysis of the deposited data

Results flagged for a closer look

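Col4a5 and Col4a6, which lie head to head on the X chromosome and encode partner chains, moved opposite ways at the 2 ages. For Col4a5 the log2 ratio of Notum-positive gof over control hem cells was -1.55 at E14.5 and 0.89 at E11.5, a difference of -2.44. For Col4a6 it was -1.70 at E14.5 and 0.92 at E11.5, a difference of -2.62. They are listed because the groups at the ages differ in direction, with 1 library behind each value, and the difference between ages was not tested. Both sides of the ratios moved. From E11.5 to E14.5 control hem cells went from 38.4 to 92.5 CPM of Col4a5 and from 14.9 to 45.8 CPM of Col4a6. Notum-positive gof cells went from 71.9 to 30.8 CPM and from 29.2 to 13.5 CPM. Gate and genotype differ together in these ratios. At E14.5 Col4a6 was also below control hem cells in the 35 control Notum-positive cells (10 UMIs). A Col4a5 UMI was found in 42.9% of those cells, 29.1% of Notum-positive gof cells and 58.3% of control hem cells.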

How the results depend on the processing

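Over 34 results and 320 alternative values, 262 stayed within 1.5 times of the reported value and 58 moved. Of 1226 ratios of called members recomputed, 1161 stayed past the limits, 58 did not and 7 turned sign. No paired analysis was possible because each group has 1 library. Where a setting below leaves fewer genes or cells, that is its construction; otherwise the cause was not tested. Comparisons of hem cells at E14.5, of mesenchymal cells between ages, gates on thinned cells, cells with no mesenchymal marker and Lum alone were added after seeing the data.

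A minimum of 50 CPM left 1 member higher and 1 lower in the whole E14.5 library, 1 lower in mesenchymal cells at E11.5, 0 higher in mesenchymal cells at E14.5, 0 higher in hem cells at E11.5 and 5 lower in hem cells at E14.5. In Notum-positive gof against control hem cells it left 1 higher at E11.5 and 2 higher and 4 lower at E14.5. With no minimum, 15 were higher in the whole E11.5 library, 10 higher and 9 lower in the whole E14.5 library, 5 higher in hem cells at each age and 8 higher in Notum-positive cells at E14.5. CPM without mitochondrial, ribosomal protein and haemoglobin genes gave 2 higher in mesenchymal and 5 higher in hem cells at E14.5. Centring on the median gene gave 3 higher in mesenchymal cells at E14.5. Means of per-cell CPM gave 4 higher in mesenchymal cells at E14.5, 4 higher in hem cells at E11.5 and 3 higher in Notum-positive cells at E14.5. Without doublet removal, 4 were higher in hem cells at E11.5 and 5 at E14.5. When cells needed 2000 genes and no more than 5% mitochondrial UMIs, 1 was higher in mesenchymal and 1 in hem cells at E11.5, and 3 in Notum-positive cells at E11.5. Gates of at least 4 markers gave 1 higher and 1 lower in hem cells at E11.5 and 2 higher in Notum-positive cells at E14.5. Gates of at least 2 markers gave 2 higher in mesenchymal cells at E14.5 and 1 higher in hem cells at E11.5. Without the neural guard, 1 was higher and 1 lower in mesenchymal cells at E11.5 and 5 were higher at E14.5. Cells outside the non-neural and mixed classes gave 2 higher in the whole E14.5 library, and cells with no mesenchymal marker gave 1 higher in hem cells at E11.5. Gates on thinned cells gave 1 higher and 1 lower in mesenchymal cells at E11.5, 2 lower in mesenchymal cells at E14.5, 1 higher in hem cells at E11.5 and 2 lower in hem cells at E14.5. For the level of mesenchymal RNA, 11 members lay above it in Notum-positive E11.5 gof cells with 4 reference genes and 11 with Lum alone, and 11 in Notum-positive E14.5 control cells with Lum alone. Lum stood at 0.535 CPM outside mesenchymal cells of E14.5 control. In these 35 cells its level thus rests on few or no UMIs, and that last count cannot tell members apart from mesenchymal RNA.

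The log2 ratios that turned sign were Col3a1 in hem cells at E11.5 (-0.45 with 2000 genes needed, -0.32 with 4 markers, -0.14 with thinned gates), Col26a1 in Notum-positive cells at E14.5 (0.02 with 2 markers), Col11a1 between ages in control mesenchymal cells (0.23 without the guard) and in hem cells at E14.5 (0.56 with thinned gates), and Col1a2 in mural cells at E14.5 (0.28 with thinned gates). In Notum-positive gof against control hem cells at E14.5, Col23a1, Col16a1, Col9a2, Col28a1, Col2a1, Col12a1, Col4a6, Col4a5, Col5a1 and Col18a1 kept their calls under every alternative in which they were measured, with log2 ratios of 4.06 to 4.56 for Col23a1. With 1 library a group, the spread between embryos is unknown.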
